A study of Zea mays with 4 samples.

Results

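The cytoskeleton genes named on the maize genome array were 29 of the 1108 genes named in the platform annotation, and 35 of 17621 probe sets that were not controls measured them. They were chosen by name: a probe set belonged when a symbol or synonym of its gene was tua, tub, act, krp or rop followed by a number, or PRO1 to PRO5. The names gave 6 probe sets of alpha-tubulin, 10 of beta-tubulin, 5 of profilin, 6 of kinesin-related proteins and 8 of ROP GTPases. No annotated name had the form act and a number, so the actin class was empty and actin was followed only on the control probe sets of the array. Signals came from 4 Affymetrix arrays, 2 for each of the maize lines Cm489 and F98902, in a series on the diversity of the cell wall. All samples were total RNA of aerial material from soil-grown plants at flower development under a long light cycle. The labels gave no treatment, no organ and no plant age, and the sample titles carry a different pl number for each sample, a mark they do not explain. Nothing else says whether the samples of a line were separate plants, so p-values cover only the spread between these samples, which may be technical.

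Microtubules are hollow polymers of alpha- and beta-tubulin dimers, and in plant cells cortical microtubules guide the cellulose synthases that lay down wall microfibrils. Kinesins are motor proteins that move along microtubules or organise them. Actin filaments carry vesicles to growing parts of the cell, profilins bind actin monomers and regulate filament growth, and ROPs are small GTPases of plants that steer both filament systems at the cell cortex.

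Values are log2 signals made with GCRMA, which removes background, puts the arrays on 1 scale and gives 1 value for the probes aimed at a transcript. Signals of different probes are not on 1 scale, so each probe set was set against itself on the 4 arrays. The values of a line are given in the order replicate 1, replicate 2. Probe sets without specific signal lie near log2 2, and a value there gives no transcript level. Of the 35 probe sets, 8 were under log2 4 on all arrays, 2 passed log2 4 on a single array and 25, of 20 genes, were at log2 4 or above on at least 2 of the 4 arrays and were tested. Because of this filter the tested probe sets are not all members, and a gene could pass by being high in 1 line. Array medians over all probe sets ran from 6.99 to 7.11. In bulk material, fewer cells of a type and less RNA per cell cannot be told apart.

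**Figure D1:**
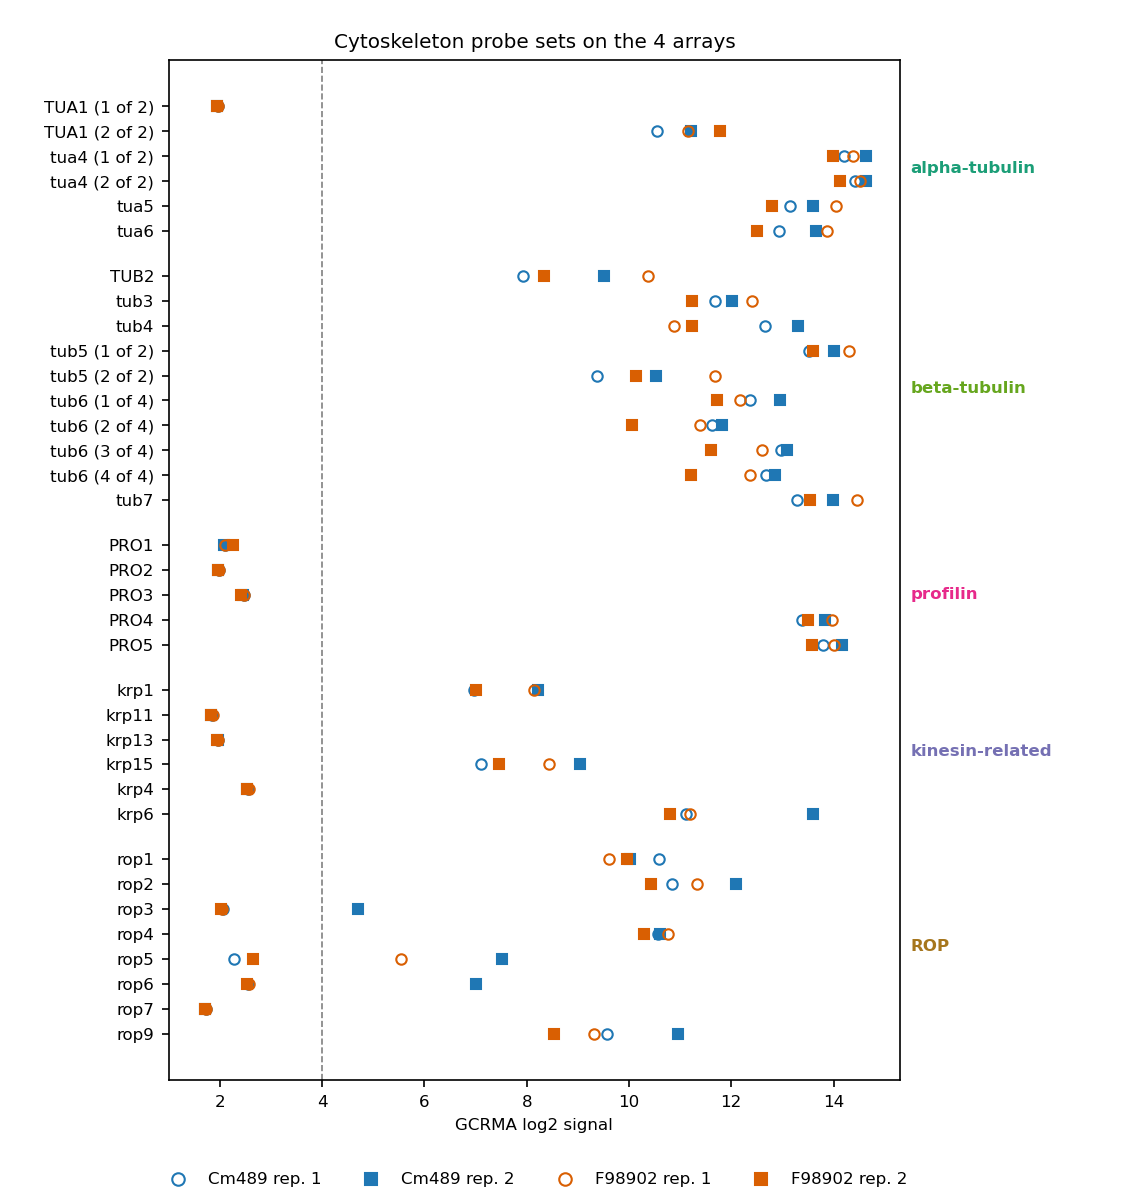
Log2 signal (horizontal axis) of all 35 cytoskeleton probe sets, 1 row each, grouped by class; circles are replicate 1 and squares replicate 2, blue is Cm489 and orange F98902, and the dashed line is log2 4. PRO1 to PRO3, krp4, krp11, krp13, rop7 and 1 probe set of TUA1 lie under the line on every array, and rop3 and rop6 pass it on Cm489 replicate 2 alone.

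None of the 25 tested probe sets passed the comparison of F98902 with Cm489 (limma, Benjamini-Hochberg adjusted p of 0.265 or more), where 1.78% of all 11242 tested probe sets passed. At an unadjusted p under 0.05 there was 1 member, tub4, against 10.5% of all tested probe sets. Standard errors of the members' differences ran from 0.42 to 2.14 on the log2 scale, and the smallest difference that passed anywhere on the array was 3.62. A missed threshold therefore does not show that a member had the same level in each line. Of the 25 probe sets 18 had the lower mean in F98902, against 51.2% of all tested probe sets. Single arrays decided most of these values. When each array was left out in turn, the differences of 24 of the 25 probe sets turned or moved by over 1.5 times, all but that of tub4. The count of lower means changed with them: it was 22 without Cm489 replicate 1, 11 without Cm489 replicate 2, 23 without F98902 replicate 1 and 10 without F98902 replicate 2. Both F98902 arrays lay below both Cm489 arrays for 7 of the 25 probe sets, against 20.0% of all tested probe sets. These were tub4, the 4 probe sets of tub6, rop1 and rop9. The tub6 probe sets are not independent, so the 7 count that gene 4 times. Both F98902 arrays lay above both Cm489 arrays for 0 of the 25, against 18.1% of all.

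**Figure D2:**
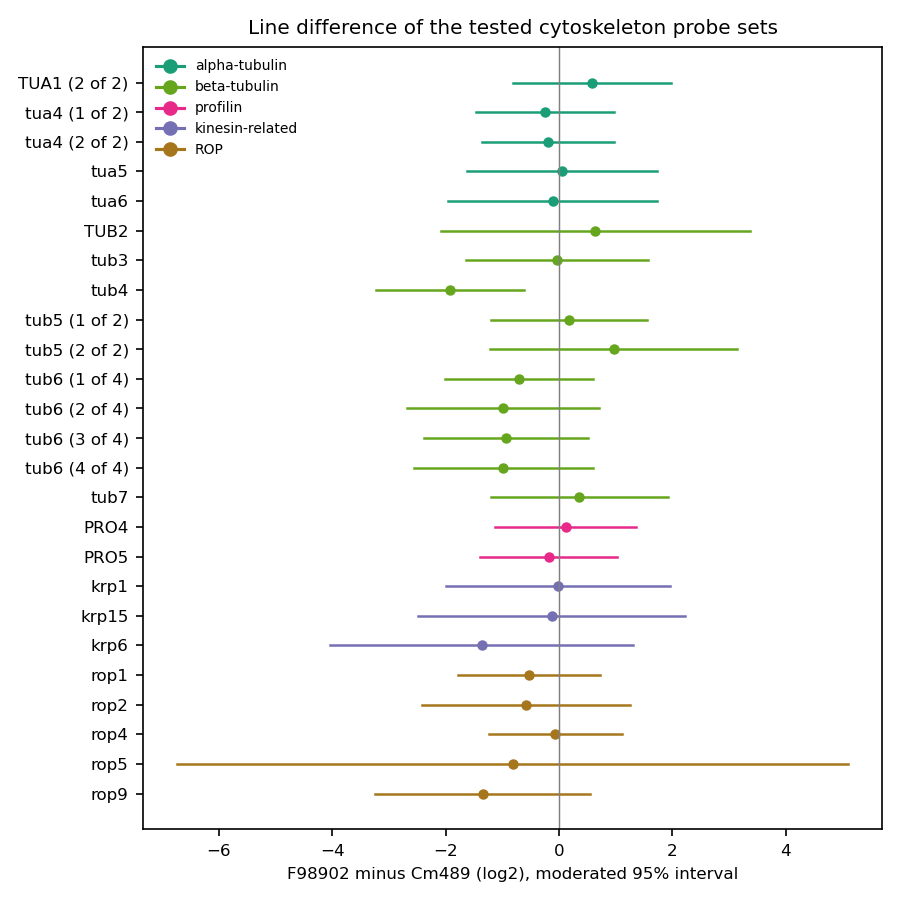
Difference between the lines, F98902 minus Cm489 in log2 units (horizontal axis), for the 25 tested probe sets, coloured by class; points are the fitted differences and bars the moderated 95% interval before any adjustment for the number of tests. The bar of tub4, from -3.22 to -0.62, is the only one of the 25 that does not cross 0, and its adjusted p was 0.265.

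Among the beta-tubulins, tub4 (LOC542417) had the largest difference between the lines. Its signal was 12.65 and 13.30 in Cm489 replicates 1 and 2 and 10.87 and 11.24 in F98902 replicates 1 and 2. Both F98902 arrays were thus below both Cm489 arrays, and in each line replicate 2 was the higher. The means were 12.98 ± 0.46 and 11.06 ± 0.26 (SD, n = 2), a difference of -1.92 (SE 0.47, limma adjusted p = 0.265), which did not pass. Leaving out 1 array at a time gave differences from -2.24 to -1.60. A lower signal in 1 line can come from less transcript or from a sequence that matches the probes less well, and these cannot be told apart here.

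The tub6 gene (LOC542239), another beta-tubulin, was measured by 4 probe sets that are not independent. The one with the smallest difference was at 12.36 and 12.95 in Cm489 and at 12.18 and 11.72 in F98902, a difference of -0.71 (SE 0.47, limma adjusted p = 0.790). The others differed by -0.93, -0.98 and -0.99 (limma adjusted p of 0.728 to 0.763), and these 3 values became -0.44, -0.40 and -0.33 without F98902 replicate 2 and -1.43, -1.57 and -1.66 without F98902 replicate 1. On all 4 probe sets F98902 replicate 2 was the lowest array and both F98902 arrays lay below both Cm489 arrays, with F98902 replicate 1 the nearer to them. On the brightest of the probe sets the arrays stood at 12.96 and 13.10 in Cm489 and at 12.60 and 11.60 in F98902. The remaining probe sets of tub6 were at 12.69 and 12.85 in Cm489 against 12.37 and 11.20 in F98902, and at 11.63 and 11.82 against 11.39 and 10.06. The former is marked by the array design for probes that can match other genes, the latter as shared between transcripts of a gene.

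The other beta-tubulin genes had arrays that overlapped between the lines. For tub7 (LOC542705) the signal was 13.28 and 13.99 in Cm489 against 14.45 and 13.54 in F98902, with means of 13.64 ± 0.50 and 14.00 ± 0.64. For tub3 (LOC542416) it was 11.68 and 12.02 in Cm489 against 12.40 and 11.22 in F98902, with a difference of -0.03 that turned to 0.02 when each array was shifted to 1 median. In both genes F98902 replicate 1 was the highest array, and the line means differed by less than the replicates of F98902.

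The beta-tubulin gene tub5 (LOC542418, also called tub8) had 2 probe sets whose differences agreed in sign. On the brighter one it was at 13.51 and 14.02 in Cm489 and at 14.31 and 13.59 in F98902, a difference of 0.18. On the dimmer one, marked by the array design as shared between transcripts of a gene, it was at 9.36 and 10.53 in Cm489 and at 11.69 and 10.13 in F98902, a difference of 0.96 (SE 0.79, limma adjusted p = 0.826) that was 0.19 without F98902 replicate 1 and 1.74 without F98902 replicate 2. F98902 replicate 1 was again the highest array on both. The gene TUB2 (TUBB2) showed the same order at a wider spread, with 7.92 and 9.50 in Cm489 against 10.36 and 8.33 in F98902. Its means of 8.71 ± 1.12 and 9.35 ± 1.44 differed by 0.64 (SE 0.99, limma adjusted p = 0.923).

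Of the 6 alpha-tubulin probe sets, 5 were above log2 4 on all arrays and 1, of TUA1, was at the floor. The tua4 gene had 2 probe sets, the second of them marked by the array design as sharing probes with other genes. On the first it was at 14.20 and 14.64 in Cm489 and at 14.38 and 13.99 in F98902, and on the second at 14.41 and 14.63 in Cm489 and at 14.52 and 14.13 in F98902. Cm489 replicate 2 was the highest and F98902 replicate 2 the lowest on both, and the differences were -0.24 and -0.19 (limma adjusted p = 0.941 and 0.954).

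The alpha-tubulin gene tua5 (LOC542248) was at 13.15 and 13.59 in Cm489 and at 14.04 and 12.80 in F98902. The gene tua6 (LOC542582) was at 12.94 and 13.65 in Cm489 and at 13.86 and 12.50 in F98902. In both, the 2 arrays of F98902 were the highest and the lowest of the 4, so that the Cm489 arrays lay between them. The differences between the lines were 0.05 (95% interval -1.62 to 1.73) and -0.11 (-1.95 to 1.73).

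TUA1 (LOC100037751) is an alpha-tubulin gene known from pollen, and its 2 probe sets disagreed. One was at the floor, at 1.97 and 1.95 in Cm489 and at 1.97 and 1.94 in F98902. The other, marked by the array design as sharing probes with other genes, was at 10.55 and 11.21 in Cm489 and at 11.15 and 11.78 in F98902. Its difference of 0.59 (SE 0.50, limma adjusted p = 0.837) did not pass, and with 1 array left out it ran from 0.26 to 0.91. F98902 replicate 2 was its highest array, which held for no other tested member. Because tubulin genes are closely alike, signal on the shared probe set cannot be assigned to TUA1 alone.

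PRO1 (LOC542409), PRO2 (LOC542410) and PRO3 (LOC542411), the profilins of maize known from pollen, were under log2 4 on every array. PRO1 was at 2.09 and 2.07 in Cm489 and at 2.10 and 2.25 in F98902, PRO2 ran from 1.96 to 1.98 and PRO3 from 2.42 to 2.48. These are floor values with no order among them. PRO4 (LOC541662) was at 13.39 and 13.84 in Cm489 and at 13.97 and 13.51 in F98902, and PRO5 (LOC542625) at 13.80 and 14.16 in Cm489 and at 14.02 and 13.58 in F98902. PRO4 and PRO5 are profilins known from tissues other than pollen, and both were bright with overlapping lines. The difference was 0.12 for PRO4 (95% interval -1.12 to 1.37, limma adjusted p = 0.973) and -0.18 for PRO5 (-1.39 to 1.03, limma adjusted p = 0.959).

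The other pollen markers with a probe set were also at the floor. The pollen list held 4 probe sets that are not members, for mgs1, C5 and the actin-depolymerizing factors adf1 (LOC542430) and adf2 (LOC542584), and 0 of these 4 reached log2 4 on any array. The sum of their signals on the linear scale ran from 17.3 to 17.5 in Cm489 and from 16.8 to 17.4 in F98902. The factor adf3 (LOC542445), known from tissues other than pollen, was measured by 3 probe sets, the brightest at 14.32 and 14.60 in Cm489 and at 14.55 and 14.41 in F98902.

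Actin was seen on 9 control probe sets, which were kept out of the tests and whose actin genes the sources used here do not name. Of these, 5 were under log2 4 on all arrays, among them all 4 that target the 5' part. The 3' probe set of the first design (set A) was at 11.77 and 11.94 in Cm489 and at 10.55 and 10.21 in F98902. Its middle probe sets were at 7.58 and 7.98 in Cm489 against 6.51 and 5.30 in F98902, and at 6.36 and 6.91 against 5.42 and 4.86. All 3 were lower on both F98902 arrays. The middle probe set of the second design (set B) ran the other way, at 7.47 and 7.10 in Cm489 and at 9.33 and 8.12 in F98902. The 3' probe set of set B was under log2 4, at 2.94 and 2.87 in each line. The direction for actin thus depended on the probe set, and no direction is given for actin as a class.

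**Figure D3:**
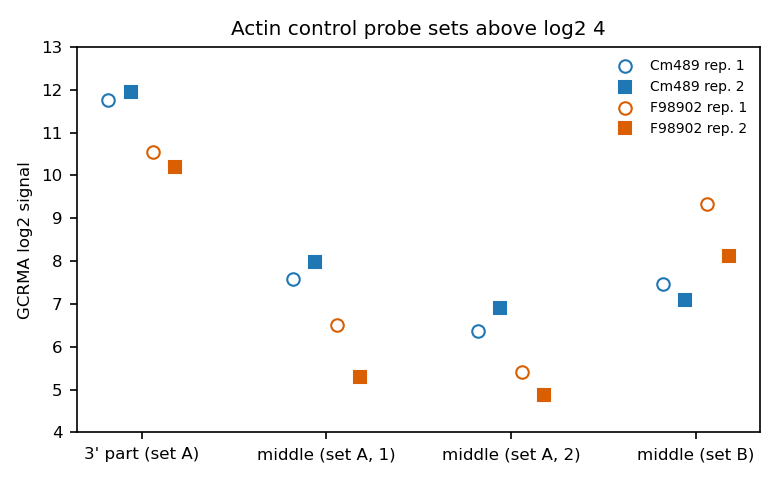
Log2 signal (vertical axis, starting at 4) of the 4 actin control probe sets above log2 4, with circles for replicate 1 and squares for replicate 2, blue for Cm489 and orange for F98902. The 3 probe sets of set A are lower on both F98902 arrays, and the middle probe set of set B is higher on both.

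Of the 6 kinesin-related genes, 3 were at the floor on every array. These were krp4 (LOC541858, between 2.52 and 2.58), krp11 (LOC541863, between 1.83 and 1.86) and krp13 (LOC542638, between 1.93 and 1.96). The other 3 were highest on Cm489 replicate 2. The brightest, krp6 (LOC541860, also called kinesin-1), was at 11.12 and 13.61 in Cm489 and at 11.20 and 10.80 in F98902, so that 1 Cm489 array stood apart and the other lay among those of F98902. Its difference of -1.36 (SE 0.97, limma adjusted p = 0.810) became -2.61 without Cm489 replicate 1, and -0.12 if Cm489 replicate 2 was left out.

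The kinesin-related genes krp1 and krp15 were dimmer. krp15 (LOC541864) was at 7.11 and 9.03 in Cm489 and at 8.43 and 7.46 in F98902, and krp1 (LOC606399) at 6.97 and 8.22 in Cm489 and at 8.15 and 7.002 in F98902. In both genes replicate 2 of Cm489 and replicate 1 of F98902 were the higher arrays of their lines. The line means of krp1 were 7.59 ± 0.89 and 7.58 ± 0.81, and those of krp15 were 8.07 ± 1.36 and 7.95 ± 0.69. The difference of krp1, -0.02, turned to 0.04 when each array was shifted to 1 median and to 0.0015 with quantile normalization.

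The ROP genes varied over the arrays in different ways. Among those above log2 4 on all arrays rop4 (LOC542739) varied least between replicates, at 10.56 and 10.61 in Cm489 and at 10.77 and 10.29 in F98902. rop1 (LOC541773) was at 10.59 and 10.02 in Cm489 and at 9.60 and 9.96 in F98902, a difference of -0.53 (SE 0.46, limma adjusted p = 0.839) that became -0.24 if Cm489 replicate 1 was left out and -0.81 if replicate 2 of that line was. It was the 1 tested member with its highest signal on Cm489 replicate 1. Its F98902 arrays lay below those of Cm489, with F98902 replicate 2 next to Cm489 replicate 2.

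rop2 and rop9 encode GTPases that in maize leaves act in the polarised division of the mother cells of stomatal subsidiary cells. rop9 (LOC542094) was at 9.57 and 10.97 in Cm489 and at 9.32 and 8.53 in F98902, with F98902 below Cm489 on both arrays. Its difference was -1.35 (SE 0.69, limma adjusted p = 0.688), which grew to -2.04 if Cm489 replicate 1 was left out and shrank to -0.65 if replicate 2 of that line was. rop2 (LOC542618) was at 10.84 and 12.09 in Cm489 and at 11.32 and 10.44 in F98902, with overlapping lines and a difference of -0.58 (SE 0.67, limma adjusted p = 0.887).

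The remaining ROP genes were at the floor on some or all arrays. rop5 (LOC542758, which also carries the name rop4) was at 2.28 and 7.52 in Cm489 and at 5.53 and 2.64 in F98902, above log2 4 on 1 array of each line. rop6 (LOC542017) was at 2.55 and 7.01 in Cm489 and at 2.56 and 2.53 in F98902. rop3 (LOC541774) was at 2.06 and 4.70 in Cm489 and at 2.05 and 2.01 in F98902. All 3 had their highest signal on Cm489 replicate 2, and rop6 and rop3 were at the floor on the other 3 arrays. With 1 array above the floor, rop6 and rop3 give no comparison of the lines. rop7 (LOC542503) was at 1.71 to 1.73 throughout.

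The classes were then compared array by array, each probe set as its difference from its own mean over the 4 arrays. On Cm489 replicate 2 the class median was 0.21 for alpha-tubulins, 0.50 for beta-tubulins, 0.22 for profilins, 1.02 for kinesin-related genes and 0.92 for ROPs, with -0.03 over all tested probe sets. On F98902 replicate 2 the medians were -0.32, -0.65, -0.24, -0.58 and -0.73 in the same order of classes, with 0.05 over all tested probe sets. On Cm489 replicate 1 they were -0.25, -0.05, -0.19, -0.62 and -0.02, with 0.10 over all, and on F98902 replicate 1 they were 0.10, 0.31, 0.21, 0.42 and 0.15, with -0.04 over all. In each of the 5 classes, Cm489 replicate 2 and F98902 replicate 1 were above the median of all probe sets and the other arrays below it. For ROPs this order depended on the filter: the median on F98902 replicate 1 was -0.06 with a filter at log2 6, which leaves out rop5, and -0.13 with no filter. With the filter at log2 6 the ROP median on Cm489 replicate 2 was 0.49. Differences between the classes were not tested, and the profilin and kinesin-related medians rest on 2 and 3 probe sets. The medians are over probe sets, so tub6, tub5 and tua4 count more than once in their classes. The tub6 probe sets, which are not independent, were all above their own mean on Cm489 replicate 1, where the beta-tubulin median was -0.05.

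**Figure D4:**
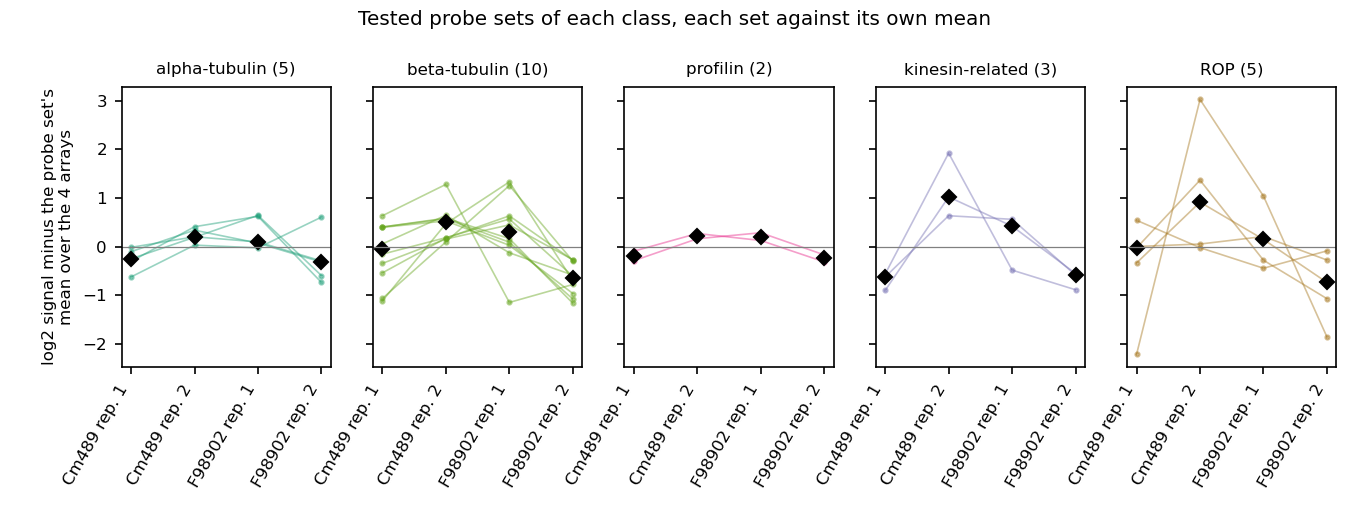
Log2 signal minus each probe set's own mean over the 4 arrays (vertical axis) on each array (horizontal axis), for the tested probe sets of each class, with their number in the panel title; thin lines join the values of 1 probe set and black diamonds are class medians. The medians are above 0 on Cm489 replicate 2 and F98902 replicate 1 and below 0 on the other arrays in all 5 panels, which for ROPs does not hold on F98902 replicate 1 with a filter at log2 6 or with no filter.

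The arrays of a line differed in most members, and in opposite ways in the lines. Signal was higher on replicate 2 than on replicate 1 of Cm489 for 24 of 25 tested probe sets, all but rop1, against 43.3% of all tested probe sets. It was higher on replicate 1 than on replicate 2 of F98902 for 22 of 25, all but TUA1, tub4 and rop1, against 48.2% of all. The 22 probe sets did both, against 32.4% of all tested probe sets. The highest of the 4 arrays was Cm489 replicate 2 for 14 of the 25 (21.5% of all), F98902 replicate 1 for 9 (28.4% of all), Cm489 replicate 1 for 1 (28.3% of all) and F98902 replicate 2 for 1 (21.8% of all). Replicate numbers carry no order, and no test was made of this pattern.

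The size of the shift varied by class. The median of replicate 2 minus replicate 1 in Cm489 was 0.44 for alpha-tubulins, 0.55 for beta-tubulins, 0.41 for profilins, 1.92 for kinesin-related genes and 1.25 for ROPs, with -0.11 over all tested probe sets. In F98902 it was -0.39, -1.08, -0.45, -0.97 and -0.79 in the same order of classes, with 0.05 over all. The largest shifts were those of rop5, at 5.24 in Cm489 and -2.90 in F98902, where the lower arrays were at the floor. With a filter at log2 6, which leaves out rop5, the ROP median in Cm489 was 0.65. Among genes above log2 4 on all arrays, TUB2 shifted by 1.59 and -2.03, krp6 by 2.49 and -0.40 and krp15 by 1.92 and -0.97. At the other end rop4 shifted by 0.05 and -0.48, and tua4 by at most 0.44 in either line. The classes also lay at different signal levels. On Cm489 replicate 1 the median signal was 13.15 for alpha-tubulins, 12.51 for beta-tubulins and 13.59 for profilins. It was 7.11 for kinesin-related genes and 10.56 for ROPs. Within tub5 the brighter probe set shifted by 0.50 in Cm489 and -0.72 in F98902, and the dimmer by 1.16 and -1.55. Whether the size of the shift went with signal level was not tested.

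**Figure D5:**
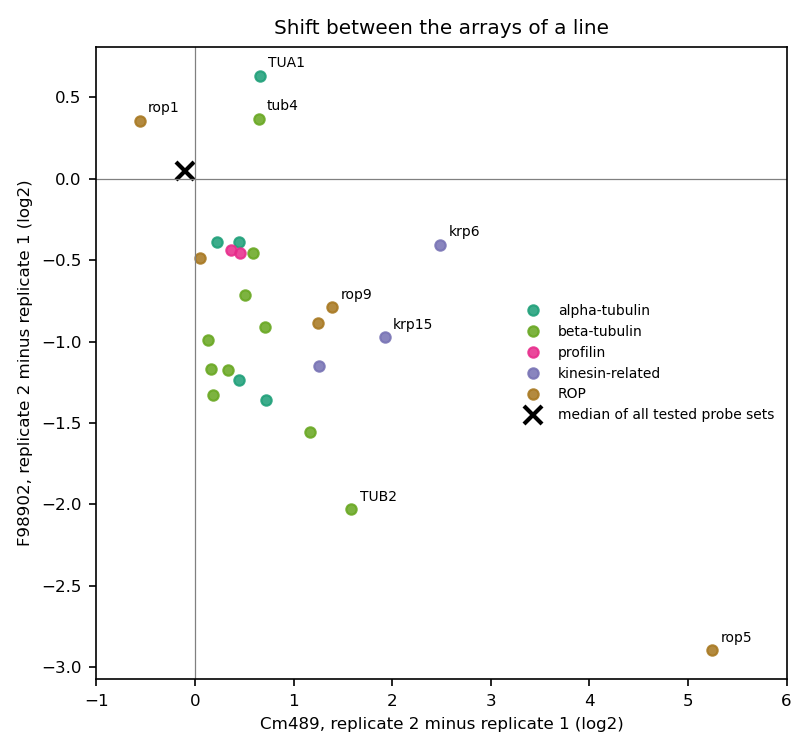
Replicate 2 minus replicate 1 in Cm489 (horizontal axis) against the same in F98902 (vertical axis), in log2 units, for the 25 tested probe sets coloured by class; the cross is the median of all tested probe sets. In the lower right part, higher on replicate 2 in Cm489 and on replicate 1 in F98902, lie 22 of the 25 points, and rop1, TUA1 and tub4 lie outside it.

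Of the 4 marker lists with tested probe sets, that for the secondary wall moved with this shift. Most probe sets of the photosynthetic leaf list did so too, and most of those for dividing cells ran the other way. These 4 lists were matched by symbol and were not screened for genes that share only a symbol. All 5 probe sets of the secondary wall list (cesa10, cesa11, CesA12, bk2 and BM1) were higher on Cm489 replicate 2 and on F98902 replicate 1 than on the other array of the line, and their summed linear signal was 7345 and 60566 in Cm489 against 45130.2 and 9321 in F98902. In the photosynthetic leaf list 8 of 10 tested probe sets did the same, with sums of 3805 and 26957 in Cm489 against 42657 and 8876 in F98902. Of the dividing cell list, 1 of 9 tested probe sets moved with the shift, that of the meristem gene kn1, against 32.4% of all. The other 8 were lower on replicate 2 of Cm489, and 6 of the 9 were higher on replicate 2 of F98902, with medians of replicate 2 minus replicate 1 of -1.24 and 0.31. Among these 8 the probe set of his1 was at 2.77 and 2.73 in Cm489, floor values that give no order. The 9 tested probe sets are of 6 genes, with MCM6 and cdc2 counted more than once. In F98902 the probe sets of cdc2 shifted by 0.11 and -0.04. The sums of this list were 5182 and 4655 in Cm489 against 3646 and 3359 in F98902, and 4196 and 2206 against 1959 and 2740 without kn1, its brightest probe set. Of its 17 probe sets 6, among them those of the cyclin genes cyc1, cyc2 and cyc3, were under log2 4 on all arrays. Of the epidermis and cuticle list, 0 of 3 tested probe sets moved with the shift. Its sums were 3009.7 and 2391 in Cm489 against 3125 and 2390.2 in F98902. Without its brightest probe set, that of fdh (LOC542459), they were 1501 and 963 against 496 and 929. Whether fdh marks these cells was not checked. The part of these cell types in the result was not tested.

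A measure of RNA integrity also moved with it for some control transcripts. The 5' minus 3' signal of GAPDH was -4.10 and -3.27 in Cm489 against -2.02 and -3.65 in F98902, and that of cyclophilin -1.61 and -1.02 in Cm489 against -0.83 and -1.65 in F98902, highest within each line on the arrays where most members were highest. For ubiquitin it was -1.600 and -1.55 in Cm489 against -1.600 and -1.36 in F98902, and for EF1-alpha -3.42 and -4.44 in Cm489 against -1.88 and -2.97 in F98902. For actin (set A) the middle minus 3' signal was -4.19 and -3.96 in Cm489 against -4.04 and -4.90 in F98902. It was thus higher within each line on the same arrays as for GAPDH. The part of RNA integrity in the result was not tested.

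Other cytoskeleton genes found by symbol were 12 genes with 18 probe sets, of which 13 probe sets of 8 genes were tested. None passed between the lines (limma adjusted p of 0.686 or more, with 0 at an unadjusted p under 0.05), 6 probe sets were higher and 7 lower in F98902, and the median difference was -0.01 against -0.02 over all tested probe sets. The opposite shifts of most members, up from replicate 1 to 2 in Cm489 and down in F98902, held for 7 of the 13. Over all tested probe sets the share was 32.4%. Among these 7, adf3 and a gamma-tubulin gene (LOC542436) count more than once. The smallest of their shifts, on a probe set of that gamma-tubulin gene, were 0.02 in Cm489 and -0.14 in F98902. Signal was higher on Cm489 replicate 2 for 10 of the 13, against 43.3% of all. The annexin gene Ann6 (LOC542446, also anx2), for a calcium-dependent membrane-binding protein, was at 7.26 and 6.76 in Cm489 and at 9.42 and 7.61 in F98902 on one probe set, a difference of 1.51 (SE 0.77). On its other probe set it was at 11.33 and 11.08 in Cm489 and at 12.79 and 11.74 in F98902, a difference of 1.06 (SE 0.54). On both, the F98902 arrays lay above those of Cm489, which no tested member showed.

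Of the remaining genes of this list, the kinesin gene KIN9 was at 10.81 on both Cm489 arrays and at 9.46 and 10.27 in F98902, a difference of -0.94 (SE 0.48, limma adjusted p = 0.690). The gamma-tubulin gene tubg1 (LOC542436), whose protein nucleates microtubules, differed by 0.70 (SE 0.52) on one probe set and by -0.27 and -0.06 on others, and the last of its probe sets was at the floor. Another gamma-tubulin gene (LOC542424) shifted against most members, at 7.18 and 6.33 in Cm489 and at 5.80 and 7.71 in F98902. Of the 18 probe sets 5 were under log2 4 on all arrays, among them those of tan1 (LOC542642), which acts in the placement of the division plane, and KIN8 (LOC541861). brk1 (LOC542086), a small subunit of the complex that activates actin branching, was at 11.90 and 12.18 in Cm489 and at 11.79 and 11.39 in F98902, and the myosin gene myo1 (LOC541763) at 8.94 and 9.97 in Cm489 and at 9.42 and 9.16 in F98902. A further 7 genes were taken to share only a symbol with the list, such as the auxin-binding protein gene abp1 and the potassium channel genes kch3 to kch5, and were counted apart.

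RefSeq's gene order for the assembly Zm-B73-REFERENCE-NAM-5.0 placed 28 of the 29 member genes, all but tua4, and 27 of these shared a chromosome with another member. Of these 27 none lay next to another: the closest were PRO2 and rop7, with 57 genes between them, and PRO1 and rop6, with 85.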

How the data were processed

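The deposited table holds 1 log2 value per probe set and array for 4 arrays, made by the authors with GCRMA per the submitters' processing notes, whose version is not given in the sources used here. A log base of 2 was inferred, as the values run from 1.18 to 15.28. Gene names came from GEO's platform annotation, with synonyms taken by Entrez number from the RefSeq annotation of Zm-B73-REFERENCE-NAM-5.0, in which 28 of the 29 member genes matched. No genome build is named for the values, so no coordinates are given, and no sequences were used.

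After 113 control probe sets were left out of 17734, probe sets at log2 4 or more on at least 2 arrays (11242) were fitted with limma 3.58.1 (lmFit and eBayes) under R 4.3.3. Differences are F98902 minus Cm489, tests were two-sided, p-values were adjusted by Benjamini-Hochberg over all of them and 0.05 was the threshold. SE denotes limma's moderated standard error. The fit was tested on simulated data. With 2 arrays a line, the smallest two-sided exact permutation p is 0.333. The number of arrays limits the precision.

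The members, lists and classes were chosen with earlier results of these data known. Values on every array are given for all 25 tested probe sets. Other cytoskeleton genes and markers were matched by symbol, and of the former the 4 probe sets with the largest differences were named. Some genes were added after their values were seen (adf1, adf2, adf3, brk1, myo1, tan1, KIN8, the gamma-tubulin gene LOC542424, kn1, fdh, his1, me3, pep1, pdk1, PDK1, rbcS, MCM6, cdc2). Same-numbered replicates were not treated as pairs: the labels do not pair them, and within-line differences over the tested probe sets correlated at r = -0.558.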

Additional observations from a re-analysis of the deposited data

How the results depend on the processing

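No member probe set passed under any alternative run: no dim filter, a filter at log2 6, values under log2 4 raised to 4, both scalings, a robust prior, the replicate block, the crossed pairing, each array left out, an adjusted p under 0.01 or 1 probe set per gene. This says little about stability, since 0 passed at the start. The count over all tested probe sets, 200, was 79 with no dim filter, 115 with values raised to 4, 8 with the robust prior, 0 at an adjusted p under 0.01, 0 when replicate number entered the fit as a replicate block and 0 to 0 with 1 array left out (limma, the lone array assumed to vary like the other line). The crossed pairing, chosen after the correlation was seen, gave 284. Of 299 single differences 272 kept their direction and 27, of 14 probe sets, turned. With equal medians tub3 turned to 0.0206 and krp1 to 0.0367, and with quantile normalization krp1 to 0.00145. When each array was left out in turn, the differences spanned -0.11 to 0.35 (PRO4), -0.40 to 0.0382 (PRO5), -0.38 to 1.65 (TUB2), -0.65 to 0.61 (krp1), -1.09 to 0.83 (krp15), -1.21 to 0.0415 (rop2), -0.304 to 0.18 (rop4), -3.44 to 1.81 (rop5), -0.39 to 0.00297 (tua4, second probe set), -0.57 to 0.67 (tua5), -0.79 to 0.57 (tua6), -0.62 to 0.55 (tub3), -0.18 to 0.54 (tub5, first probe set) and -0.0957 to 0.82 (tub7). The first probe sets of tua4 and tub6 kept their sign, at -0.46 to -0.0199 and -1.001 to -0.41. The median difference of alpha-tubulins ran from -0.44 to 0.27. Of 205 class values 6 moved by more than the spread between arrays, 3 of them these; with no dim filter, which adds floor probe sets, the profilin median of replicate 2 minus replicate 1 was -0.0132 for Cm489 and -0.0586 for F98902, and the kinesin-related one 0.63 for Cm489. Other causes were not tested.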
